A study of Danio rerio with 9 samples.

Results

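Among 52216 zebrafish transcript IDs, 150 were taken as the steadiest abundant transcripts shared by Schwann cells, oligodendrocyte lineage cells and neurons. They were chosen by their measured levels. A transcript had to reach at least 100 CPM (the estimated count of a transcript divided by the total of its library and brought to a common total) in each of 9 libraries. Of 310 that did, 5 with mitochondrial IDs were left out, and the 150 with the lowest standard deviation (SD) of log2(CPM + 1) over the 9 libraries were taken from the remaining 305. Levels, spreads and group differences of the members are therefore descriptions of what chose them, and no test of them counts as support.

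The cells were sorted from dissociated trunks of AB* strain embryos at 72 hours post fertilization, with 3 libraries per group. Schwann cells, the glia of peripheral nerves, were double positive for the gene trap Gt(foxd3:mCherry) and the transgene Tg(sox10:mEGFP). Oligodendrocyte lineage (OL) cells, the myelin-forming glia of the central nervous system with their precursors, were double positive for Tg(olig2:dsred) and Tg(sox10:megfp), and neurons were positive for Tg(nbt:dsred). Each group thus came from fish with a different set of reporters, although both glial groups carried a sox10 transgene, and each library started from 1750 ± 750 cells whose RNA was amplified with a SMART-Seq v4 kit. Population, fish and reporter therefore cannot be told apart. No label ties the 3 libraries of a group to different clutches or sorting days, and p-values cover only the spread between these libraries, which may be technical. Totals ranged from 7123251 to 11191844 counts for Schwann cells, 11869510 to 15266878 for OL and 11439759 to 17126213 for neurons.

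Every cell needs the machinery for making proteins, producing energy, keeping its shape and clearing damaged proteins, and genes that serve those needs are commonly called housekeeping genes. Their transcripts tend to be abundant in unlike cell types, and steady ones are used as references against which other transcripts are measured. Glia and neurons share such needs while differing in their specialised products, such as myelin or synaptic proteins. The files give transcript IDs without gene names, and 0 of the IDs were found in tables of 29201 and 49597 genes that list other kinds of identifier. The 150 are therefore given by ID, with no function or sequence, and marker genes of the sorted populations were not analysed here.

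The members were abundant, and steady only in comparison with other transcripts. Their mean level ran from 159 to 3108 CPM with a median of 313 CPM. The 155 other transcripts past the floor had a higher median, 469 CPM. Over the 23408 transcripts that passed a filter on low counts the median was 13.1 CPM, a contrast that the floor sets. A total of 70 members lay under 300 CPM and 9 above 1000 CPM. The SD of log2(CPM + 1) over the 9 libraries ran from 0.170 to 0.606 with a median of 0.468, where the 155 other transcripts past the floor had a median of 0.799 and the 23408 a median of 1.79. Between its lowest and highest library the median member still differed 2.67-fold, with a range from 1.41-fold to 4.56-fold. Only 19 of the 150 stayed within 2-fold over all 9 libraries, 51 exceeded 3-fold and 4 exceeded 4-fold. The smallest estimated count of a member in any library was 718. Counting error alone gives a median SD of 0.0231 on the log2 scale for one member in one library. Both values follow from the choice, since the floor sets a high count, and counting error does not cover the amplification of RNA from few cells. In such bulk samples fewer cells of a type and less RNA per cell cannot be told apart.

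**Figure D1:**
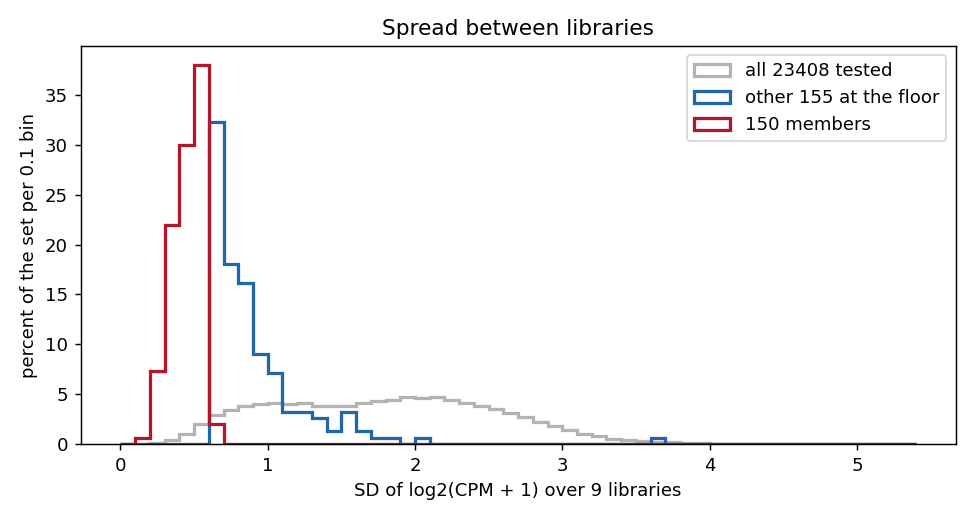
Histogram of the SD of log2(CPM + 1) over 9 libraries (x axis) as the percent of each set per bin (y axis), for the 150 members, the other 155 transcripts at 100 CPM or more in every library, and all 23408 transcripts tested. The members end at 0.606 by the way they were chosen, and the tested transcripts have a median of 1.79.

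The end of the list was not a natural break. The last members were ENSDART00000012630.8, ENSDART00000146779.2 and ENSDART00000002318.7, with SDs of 0.601, 0.603 and 0.606. The transcripts just outside were ENSDART00000145055.1, ENSDART00000006132.7 and ENSDART00000112488.3, with SDs of 0.609, 0.611 and 0.611. Means of these neighbours were 219.5, 431 and 316 CPM inside and 1584, 315 and 221 CPM outside.

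The floor of 100 CPM left a minority of the abundant transcripts of each population. In Schwann cells 887 transcripts reached it in all 3 libraries, in OL 1037 and in neurons 1117. Schwann cells and OL shared 443 of them, 49.9% of the first list and 42.7% of the second. Schwann cells and neurons shared 441, 49.7% and 39.5% of their lists, and OL and neurons shared 480, 46.3% and 43.0%. The 310 common to the 3 lists were 15.6% of the 1987 transcripts on any of them. Single libraries weighed unequally: 66 transcripts missed the floor in Schwann cells replicate 2 alone, and 18 of these were under 1 CPM there. The corresponding number was 29 for Schwann cells replicate 1, of which 5 were under 1 CPM, and 8 to 28 for each of the other 7 libraries, where at most 1 was under 1 CPM. Schwann cells replicate 2 was also the library with the lowest total. The part of its depth in these losses was not tested.

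The steadiest member was also the most abundant. ENSDART00000141737.2 stood at 2687, 3799 and 3715 CPM in Schwann cell libraries 1 to 3, at 2838, 3027 and 3074 CPM in OL libraries and at 2921, 2919 and 2991 CPM in neuron libraries. Its neuron libraries were nearly equal and lay between the lowest and the highest Schwann cell library, and the groups overlapped. The group means were 3400.4 ± 619 CPM in Schwann cells, 2979.7 ± 125 CPM in OL and 2944 ± 41.3 CPM in neurons (SD, n = 3 each), and the SD of log2(CPM + 1) was 0.170.

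The next 4 by spread divided into abundant and modest transcripts. ENSDART00000018423.7 stood at 281, 292 and 289 CPM in Schwann cell libraries 1 to 3, at 211, 293 and 235 CPM in OL libraries and at 264, 232 and 334 CPM in neuron libraries. It was close to constant in Schwann cells and all 3 groups overlapped (SD of log2(CPM + 1) 0.208). ENSDART00000126279.3 stood at 289.9, 362 and 279 CPM in Schwann cell libraries 1 to 3, at 343, 299 and 252 CPM in OL libraries and at 206, 241 and 276 CPM in neuron libraries. All of its neuron libraries lay below all of its Schwann cell libraries, by a narrow margin (SD 0.250). ENSDART00000168241.1 stood at 1899, 1760.3 and 2741 CPM in Schwann cell libraries 1 to 3, at 1902, 2585 and 2252 CPM in OL libraries and at 2743, 2438 and 2722 CPM in neuron libraries. It was second in mean level, and its groups overlapped, with Schwann cells replicate 3 as high as the neurons (SD 0.256). ENSDART00000008454.7 stood at 184, 272 and 199 CPM in Schwann cell libraries 1 to 3, at 159.8, 188 and 169.5 CPM in OL libraries and at 152, 154 and 177 CPM in neuron libraries. Schwann cells replicate 2 stood above its other libraries, and the Schwann cell libraries all exceeded the neuron libraries (SD 0.256).

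Abundance and steadiness were nearly unrelated inside the list. Across the 150 members, which share the same 9 libraries, the Spearman correlation of the SD with mean CPM was -0.051, and 2 of the 10 steadiest were among the 10 most abundant. Members 3, 4 and 5 by mean level ranked 98, 27 and 46 by spread. ENSDART00000160216.1 stood at 2273, 2334 and 1738 CPM in Schwann cell libraries 1 to 3, at 1911, 1901 and 2328 CPM in OL libraries and at 856, 1228 and 1146 CPM in neuron libraries. Every glial library of this transcript lay above every neuron library, and the glial groups overlapped. ENSDART00000054987.6 stood at 1609.5, 2324 and 2119 CPM in Schwann cell libraries 1 to 3, at 1735, 1608 and 1817 CPM in OL libraries and at 1267, 1056 and 1336 CPM in neuron libraries. Here too the neurons were lowest without overlap. ENSDART00000099994.4 stood at 1832, 2349.9 and 2156 CPM in Schwann cell libraries 1 to 3, at 1125, 1624 and 1314 CPM in OL libraries and at 1509, 1023 and 1658 CPM in neuron libraries. Schwann cells were highest for it, while the other groups overlapped.

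**Figure D2:**
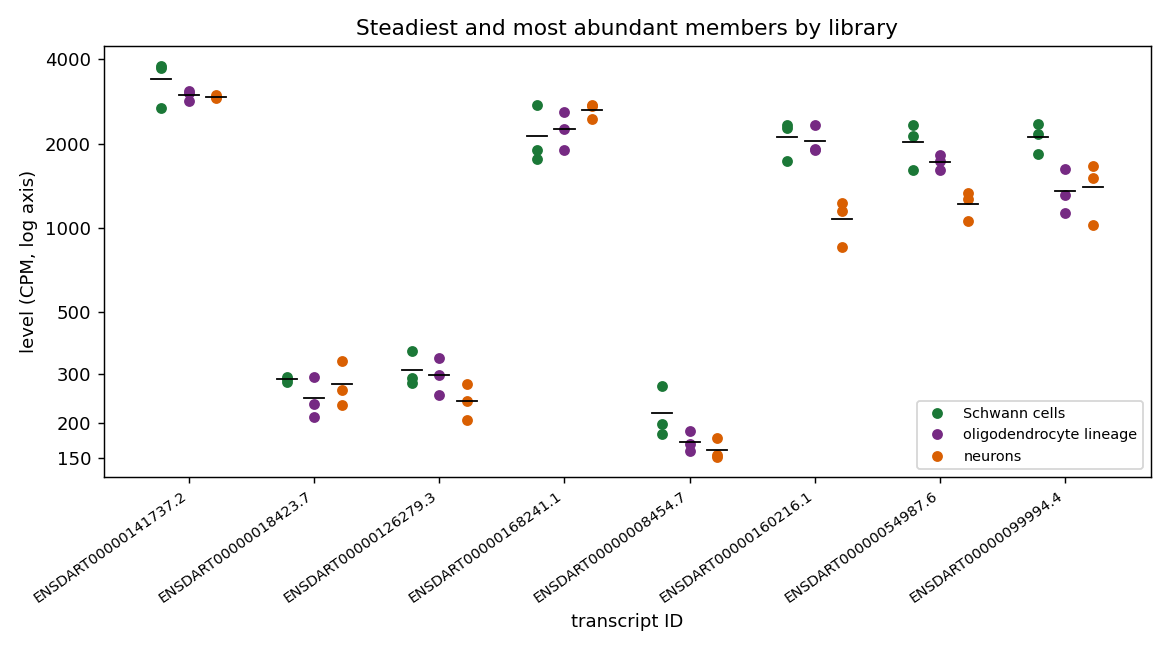
Level in CPM (log axis) of the 5 steadiest members and the 3 further members among the 5 most abundant, with one point per library, coloured by sorted population, and a line at each group mean. The points of ENSDART00000141737.2 lie between 2687 and 3799 CPM, and those of ENSDART00000160216.1 are lower in neurons than in both glial groups.

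Per length the order changed. CPM divided by the effective length in kilobases (CPM per kb) puts transcripts of unlike length on the same scale. ENSDART00000141737.2 and ENSDART00000168241.1 kept the highest levels, at 2179.5 ± 257 and 1942 ± 333 CPM per kb (SD over 9 libraries). ENSDART00000164039.1 with a length of 1026 bases came next at 1376 ± 417 CPM per kb, up from rank 13 by CPM. ENSDART00000160216.1, with 3141 bases, dropped from rank 3 to rank 15 at 628 ± 198 CPM per kb. Within these SDs the leading pair overlapped, and ENSDART00000164039.1 overlapped with ENSDART00000054987.6, at 1159 ± 277 CPM per kb. These SDs pool 3 populations and the same libraries, so their overlap does not settle the order. By group means, ENSDART00000168241.1 led ENSDART00000141737.2 in neurons only (2200 against 2075 CPM per kb). ENSDART00000054987.6 led ENSDART00000164039.1 in OL only (1200 against 1176 CPM per kb). Over the 150, the Spearman correlation between the order by CPM and the order by CPM per kb was 0.653.

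Length was a feature that the choice did not use directly. The members had a median length of 2258 bases and ran from 909 to 13465 bases, where the 155 others past the floor had a median of 2831 bases and the 23408 tested transcripts a median of 2264 bases. A total of 13 members exceeded 5000 bases and 2 were under 1000 bases. Longer members were slightly less steady, with a Spearman correlation of 0.163 between length and SD. Estimated counts that lay within 1e-06 of a whole number in all 9 libraries show no division of reads between IDs. They belonged to 36 of the 150 members (24%), against 27 of the 155 others (17.4%) and 21.5% of all IDs with any count. An ID without counts in a library also passes as whole there. The 21.5% is therefore not a like measure for the members, whose smallest count was 718. The level of the remaining 114 members may hold reads shared with another ID, since the estimates split a read over similar isoforms and gene copies.

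Members varied both inside groups and between group means. The SD of single libraries within groups had a median of 0.370 on the log2 scale, and the SD of the 3 group means a median of 0.332. The 2 are unlike measures, since a mean of 3 libraries varies less than a single library. Group means also hold part of the spread inside groups. Of the variance of a member over 9 libraries a median of 43.9% lay between groups. This median was 69.3% for the 155 others past the floor and 33.4% for all tested transcripts. The upper quartiles were 63.5% for the members, 85.5% for the 155 others and 56.7% for all tested transcripts. The part between groups exceeded 50% in 58 members, and the matching count over all tested transcripts is not given here. Schwann cells varied most, with a median SD within the group of 0.394, followed by OL at 0.332 and neurons at 0.246. The same order held over the tested transcripts, from 1.49 for Schwann cells to 0.786 for neurons. Group means lay within 1.1-fold of each other for 6 members, within 1.5-fold for 69, and over 2-fold apart for 15. Low total spread and equal group means were different properties. ENSDART00000136991.1, singled out after its values were seen for the closest group means, had means of 208 ± 93.3 CPM for Schwann cells, 198 ± 9.62 CPM for OL and 200.2 ± 27.2 CPM for neurons (SD, n = 3 each). Its Schwann cell libraries were at 316, 162 and 148 CPM, so near-equal means stood beside a more than 2-fold range in that group.

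Schwann cells replicate 2 held the most extreme values. It was the highest library for 40 members and the lowest for 22, 62 of 150 in all, where each of the other 8 libraries was extreme for 20 to 43. Against the mean of the other 8 libraries, the median absolute difference of the members was 0.539 (log2) in Schwann cells replicate 2 and 0.274 to 0.385 elsewhere. Neuron libraries were seldom the highest, in 5, 4 and 10 members for replicates 1, 2 and 3. A decomposition of the members' deviations from their own means gave a leading component with 28.8% of the variance. Schwann cells replicates 2 and 3 had the largest positive weights in it, 0.694 and 0.373, and the neuron libraries weights of -0.363, -0.396 and -0.221. The second component held 19.6% and set OL replicates 1 and 2 (0.564 and 0.441) against Schwann cells replicate 1 (-0.533).

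**Figure D3:**
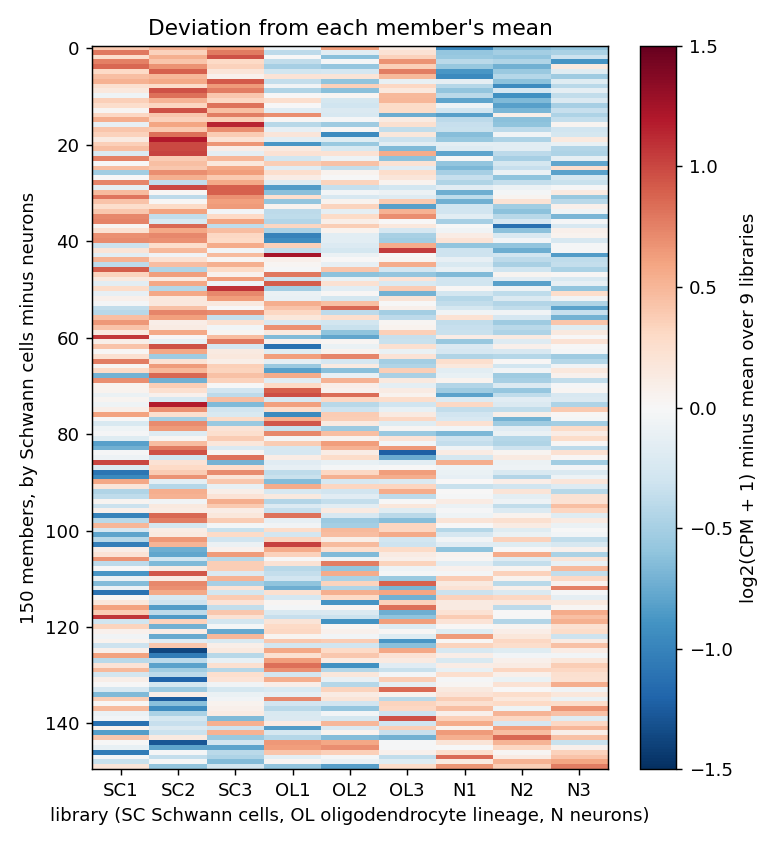
Deviation of log2(CPM + 1) from each member's mean over 9 libraries (colour), for the 150 members (rows, ordered by Schwann cells minus neurons) in the 9 libraries (columns). The strongest colours gather in the Schwann cell columns, most of all in replicate 2, and the neuron columns are paler and alike.

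The order of the members' levels was shared across populations. Over the 150 members, neuron libraries had a mean Spearman correlation of 0.869 with each other, OL libraries 0.735 and Schwann cell libraries 0.688. Across populations the mean was 0.715 for OL with neurons, 0.697 for Schwann cells with neurons and 0.671 for Schwann cells with OL. Neurons thus resembled each other more than any other group. The mean of Schwann cell libraries with each other was about that with neuron libraries, but it depended on replicate 2. Schwann cells replicates 1 and 3 correlated at 0.777, and the pairs with replicate 2 at 0.585 and 0.701. Single pairs of Schwann cell and neuron libraries ran from 0.580 to 0.755. For the 155 others past the floor, the values inside populations were 0.860, 0.684 and 0.579, and those across were 0.373, 0.387 and 0.412. The gap between both sets follows from the choice, since low spread over all libraries keeps an order in place.

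The members held a slightly larger share of the counts in Schwann cells than in neurons. Their share was 7.23%, 7.80% and 7.93% in Schwann cells replicates 1 to 3, 6.62%, 6.55% and 6.82% in OL and 6.21%, 5.91% and 6.54% in neurons. All Schwann cell libraries lay above all others, and OL libraries lay just above the neuron libraries. By TPM, which divides counts by length, the mean share was 8.01% in Schwann cells, 6.78% in OL and 7.17% in neurons, so the order of OL and neurons turned. On counts the means were 7.65% ± 0.372, 6.66% ± 0.138 and 6.22% ± 0.315 (SD, n = 3 each). The 155 others past the floor held 13.4% ± 1.71 for Schwann cells, 13.8% ± 3.60 for OL and 18.3% ± 1.65 for neurons, with OL replicate 3 at 18.0% inside the neuron range. These 155 include a transcript with a mean of 27116 CPM over the 9 libraries, the highest of all tested transcripts. Their share thus leans on a single transcript, and their share without it is not given here. In neurons the most abundant transcript of a library took 7.06% to 8.39% of the counts, against 0.601% to 2.35% in the glial libraries. CPM on library totals falls for all other transcripts when a few take more. The part of this in the members' lean was not tested.

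That lean moved with the scaling of the libraries. On library totals the median difference of the members was 0.18 (log2) for Schwann cells over OL, 0.28 for Schwann cells over neurons and 0.10 for OL over neurons. The same medians over all tested transcripts were -0.34, -0.63 and -0.17. These are unlike sets, since the rule holds members at 100 CPM or more in every library. The tested transcripts had a median level of 13.1 CPM and may be missed in some libraries. With TMM factors, which trim extreme transcripts before scaling, the members' medians were 0.09, 0.075 and -0.014, so the last changed sign. With DESeq2 size factors they were 0.32, 0.33 and 0.015, and with upper-quartile factors 0.51, 0.62 and 0.11. Schwann cells replicate 2 moved most, since the median deviation of the members there was 0.233 on the library total, 0.102 with TMM, 0.446 with DESeq2 size factors and 0.863 with upper-quartile factors. In the other 8 libraries it stayed between -0.301 and 0.363 under all 4 scalings.

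**Figure D4:**
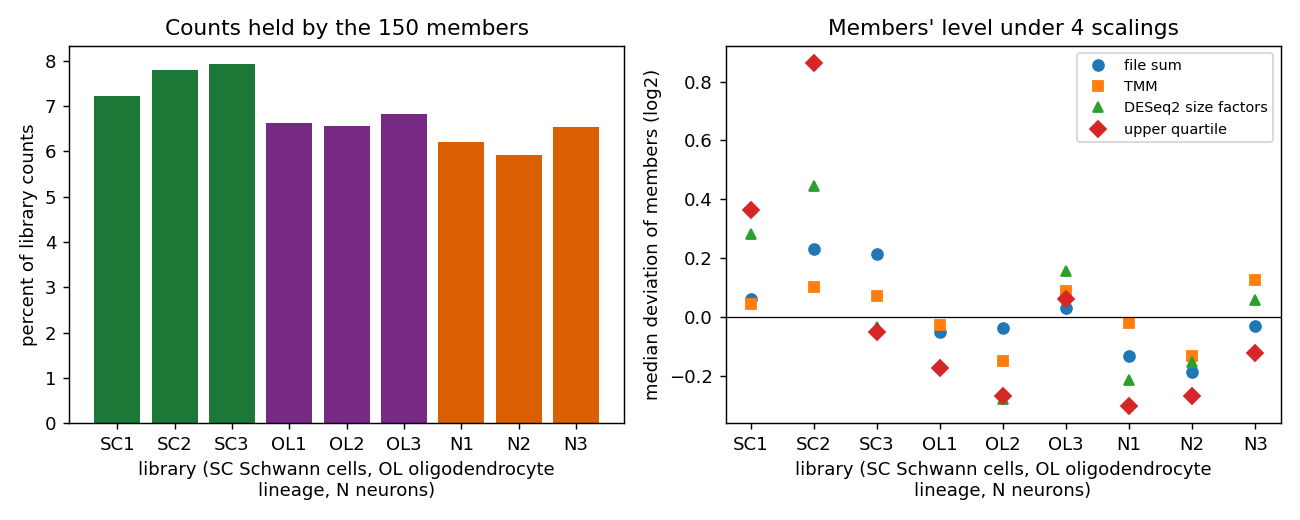
Left, percent of each library's counts held by the 150 members (bars, coloured by population). Right, median over the members of the deviation of log2(CPM + 1) from its mean over 9 libraries, under 4 scalings of the libraries. The share is 7.23% to 7.93% in Schwann cells and 5.91% to 6.54% in neurons, and Schwann cells replicate 2 reaches 0.863 under upper-quartile factors.

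In edgeR's quasi-likelihood test, fitted to all 23408 transcripts and all 9 libraries, 0 of the 150 members passed an adjusted p under 0.05 in any comparison of groups. The share of all transcripts called was 0.795% for Schwann cells against OL, 0.355% for Schwann cells against neurons and 0.0854% for OL against neurons. These shares stand for 186, 83 and 20 transcripts, and without single libraries the counts ran from 1 to 379, from 1 to 118 and from 0 to 58. An unadjusted p under 0.05 was reached by 4, 4 and 7 members, beside 17.1%, 16% and 11.4% of all transcripts. DESeq2 called 0 members in each comparison, beside 14.3%, 13.5% and 8.69% of all transcripts, and limma voom called 3, 2 and 5 members, beside 4.32%, 9.47% and 6.61%. Because the same counts chose the members, nothing is read from these numbers. The members' fitted log2 fold changes had a median standard error (SE) of 0.51, so a fold change of a member near 2-fold lay within about 2 SE of none. The lack of calls does not show that the groups were equal. The smallest edgeR adjusted p of a member was 0.194, for ENSDART00000160216.1 between Schwann cells and neurons, with a log2 fold change of 0.78 (SE 0.268).

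Groups did not overlap for a number of members, which is again a description of values that chose them. Schwann cells lay wholly above OL for 22 members (14.7%, beside 6.09% of all tested transcripts) and below for 9 (6%, beside 10.7% of all). Schwann cells lay above neurons without overlap for 40 members (26.7%, beside 7.42% of all) and below for 11 (7.33%, beside 17.5% of all). OL lay above neurons for 30 (20%, beside 10.6% of all) and below for 18 (12%, beside 14.7% of all). The lean of these counts followed the scaling: with TMM factors they were 19 and 14 (5.72% and 11.3% of all tested transcripts), 26 and 18 (6.40% and 19.2%), and 19 and 23 (9.46% and 15.7%). With upper-quartile factors they were 39 and 0 (7.02% and 9.75%), 61 and 0 (8.47% and 16.6%), and 31 and 16 (10.6% and 14.8%).

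Against both other populations at the same time, Schwann cells were highest without overlap for 12 members (8%) and lowest for 3 (2%), beside 3.3% and 4.69% of all tested transcripts. OL was highest for 5 (3.33%) and lowest for 7 (4.67%), beside 4.08% and 2.25% of all. Neurons were highest for 5 (3.33%) and lowest for 14 (9.33%), beside 7.26% and 2.19% of all. With TMM factors these counts became 6 and 4 for Schwann cells (2.86% and 5.16% of all), 7 and 8 for OL (4.01% and 2.25%) and 9 and 8 for neurons (8.03% and 1.81%). The 3 sets of counts share libraries and are not independent.

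The next 4 members leaned most between the glial groups, 2 per direction, among those whose Schwann cell and OL libraries did not overlap. Both that were higher in Schwann cells exceeded 2-fold. Of those higher in OL, ENSDART00000141170.2 stood in Schwann cells at 0.500 times the OL level, just past 2-fold (log2 difference -1.0001). ENSDART00000172465.1 stood there at 0.546 times the OL level. ENSDART00000139385.2 stood at 754, 1166 and 927 CPM in Schwann cell libraries 1 to 3, at 319.5, 399 and 525 CPM in OL libraries and at 530.1, 528 and 546 CPM in neuron libraries. Its Schwann cell libraries stood above all others, 2.30-fold above OL, with an edgeR adjusted p of 0.221. ENSDART00000170402.1 stood at 407, 416 and 315 CPM in Schwann cell libraries 1 to 3, at 126, 226 and 181 CPM in OL libraries and at 273, 216 and 261 CPM in neuron libraries. It too was highest in Schwann cells, 2.17-fold above OL, and its neurons were in between with some overlap. In the other direction, ENSDART00000141170.2 stood at 163, 101 and 100.4 CPM in Schwann cell libraries 1 to 3, at 272, 284 and 173 CPM in OL libraries and at 174, 218 and 185 CPM in neuron libraries. Schwann cells replicates 2 and 3 were just above the floor that admits a member. ENSDART00000172465.1 stood at 482, 176 and 507 CPM in Schwann cell libraries 1 to 3, at 684, 564 and 687 CPM in OL libraries and at 389, 405 and 497 CPM in neuron libraries. Schwann cells replicate 2 was far below its other libraries.

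Between Schwann cells and neurons the largest lean belonged to the last member of the list. ENSDART00000002318.7 stood at 387, 421 and 451 CPM in Schwann cell libraries 1 to 3, at 279, 453 and 324 CPM in OL libraries and at 149, 186 and 195 CPM in neuron libraries. Both glial groups lay above all neuron libraries, Schwann cells by 2.37-fold (edgeR log2 fold change 1.04, SE 0.452, adjusted p = 0.300). ENSDART00000104520.6 stood at 540.2, 398 and 538 CPM in Schwann cell libraries 1 to 3, at 238, 280.0 and 362 CPM in OL libraries and at 208, 219 and 225 CPM in neuron libraries. Its 3 groups were ordered without any overlap, from Schwann cells down to neurons. In the other direction, ENSDART00000010777.6 stood at 311, 181 and 226 CPM in Schwann cell libraries 1 to 3, at 181, 155 and 331 CPM in OL libraries and at 431, 353 and 466 CPM in neuron libraries. ENSDART00000025940.9 stood at 572, 706 and 458 CPM in Schwann cell libraries 1 to 3, at 733, 674 and 632 CPM in OL libraries and at 791, 1036 and 1087 CPM in neuron libraries. For both transcripts the neuron libraries were above every glial library, and the glial groups overlapped.

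ENSDART00000010777.6 was also among those that leaned most toward neurons from OL, with an OL level 0.510 times that of neurons. The strongest of them, ENSDART00000020741.7, stood at 227, 188 and 116 CPM in Schwann cell libraries 1 to 3, at 127, 109 and 104 CPM in OL libraries and at 248, 312 and 233 CPM in neuron libraries. Its neuron libraries exceeded all others, with a log2 difference of -1.21 from OL, whose libraries were close to the floor. ENSDART00000144248.1 stood at 170.2, 189 and 138 CPM in Schwann cell libraries 1 to 3, at 354, 324 and 188 CPM in OL libraries and at 103, 138 and 153 CPM in neuron libraries. OL replicates 1 and 2 set it apart, since replicate 3 matched a Schwann cell library. ENSDART00000126299.3 stood at 679.8, 399.5 and 645 CPM in Schwann cell libraries 1 to 3, at 899, 968 and 669 CPM in OL libraries and at 423, 431 and 400.0 CPM in neuron libraries. Its neurons were close to constant and below OL by 2.00-fold, while Schwann cells replicate 2 was at the neuron level.

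Few pairs of members were strongly correlated. Over the 11175 pairs of members and 9 libraries, the Pearson correlation of log2(CPM + 1) had a median of 0.074. It exceeded 0.8 in 1.78% of pairs and was under -0.8 in 0.707%. The matching shares for other transcripts are not given here. The patterns most like that of ENSDART00000141737.2 were those of ENSDART00000100396.4 (0.875), ENSDART00000161586.2 (0.823) and ENSDART00000067489.6 (0.780). ENSDART00000100396.4 stood at 209, 457 and 427 CPM in Schwann cell libraries 1 to 3, at 128, 180.0 and 189 CPM in OL libraries and at 205, 216 and 227 CPM in neuron libraries. Like the steadiest member, it was high in Schwann cells replicates 2 and 3 and even across neurons, but it spanned 3.58-fold where ENSDART00000141737.2 spanned 1.41-fold. These values rest on 9 libraries that share their scaling.

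Steadiness carried over in part to single libraries left out of the choice, while other libraries of the same population took part in it. The rule was applied to 8 libraries at a time, and the 150 transcripts so chosen were read in the library left out. A transcript counted as within 2-fold if its log2(CPM + 1) there was within 1 of its mean in the other 8. This held for 67.3% of the list in Schwann cells replicate 2, for 76% in Schwann cells replicate 1 and for 84% to 96.7% in the other 7 libraries. Among the remaining eligible transcripts, which met the floor but not the spread, it held for 55.2%, 63.0% and 61.7% to 75.4%. The chosen list was ahead in 9 of 9 libraries. The 9 lists overlap and give no independent tests. Because the other libraries of the same population were among the 8, this lead does not show steadiness across populations. The floor itself was kept at like rates: 83.3% to 98.7% of the chosen lists and 81.4% to 96.4% of the remaining transcripts were at 100 CPM or more in the library left out on library totals. Which share was the higher one depended on the scaling: the chosen share was higher in 3 of 9 libraries on library totals and in 8 of 9 with TMM factors. Of the 150 members, 100 were on all 9 such lists, and 117 to 140 were on any one of them.

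Whole populations were left out in the same way. The rule was applied to the 6 libraries of 2 populations, an alternative chosen after the data were seen, and read in the third. Of the 150 transcripts chosen over OL and neurons, 66.7% had a Schwann cell mean within 2-fold, against 60.3% of the remaining eligible ones. Of those chosen over Schwann cells and neurons, 77.3% stayed within 2-fold in OL, against 65.0%. Of those chosen over both glial groups, 62.7% stayed within 2-fold in neurons, against 58.2%. With TMM-scaled CPM throughout, the chosen lists gave 70%, 77.3% and 71.3%, and the remaining transcripts 58.8%, 64.8% and 64.9%. The differences were not even in direction. Of the 150 chosen, 76, 104 and 118 were lower in the left-out Schwann cells, OL and neurons on library totals. The median log2 differences were -0.024, -0.249 and -0.687. With TMM the counts were 89, 108 and 112, and the medians -0.311, -0.254 and -0.508. The cause was not tested. On library totals, all 3 libraries of the population left out were at 100 CPM or more for 102, 106 and 110 of the 150 transcripts. These were 68%, 70.7% and 73.3%, not far from the 62.5%, 69.6% and 68.4% of the remaining eligible transcripts. The lists shared 80, 89 and 80 transcripts with the 150 members.

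Near absence after such a choice was mostly seen in Schwann cells. Of the 150 transcripts chosen over OL and neurons, 16 were under 1 CPM in at least 1 Schwann cell library and 1 of them was so in all 3. By library, 7, 11 and 2 were under 1 CPM in Schwann cells replicates 1, 2 and 3. In 6 cases Schwann cells replicate 2 was under 1 CPM while both other Schwann cell libraries were at 100 CPM or more. Lists chosen without OL or without neurons gave 2 and 1 transcripts under 1 CPM in any library of the population left out. The matching counts for the remaining eligible transcripts are not given here. Schwann cells replicates 1 and 2 also had the lowest totals, 8502028 and 7123251 counts, and the fewest IDs with any count, 17621 and 16568, where the others had 19122 to 29021. The part of these in the near absences was not tested.

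**Figure D5:**
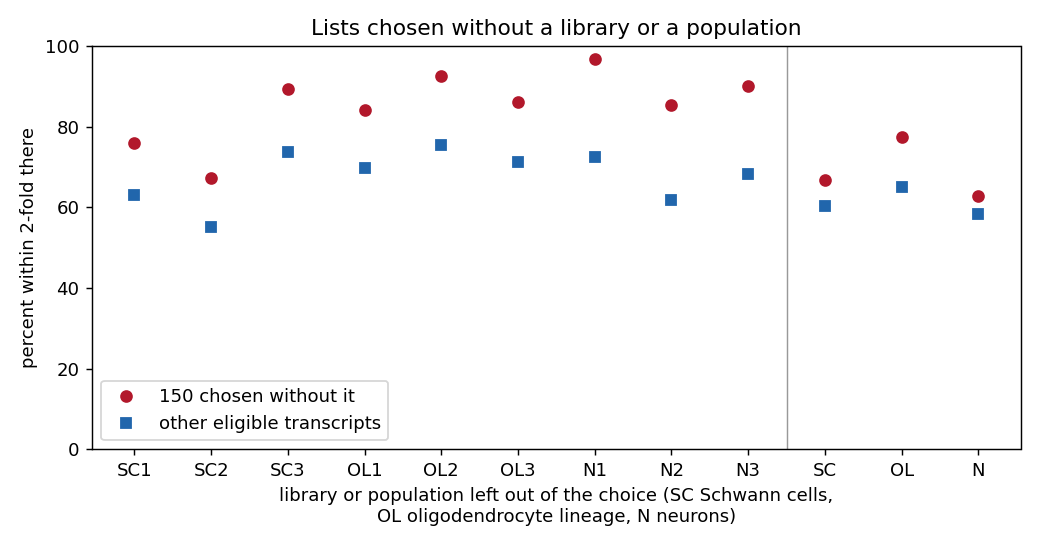
Percent of transcripts whose level in the library (left of the line) or population (right of the line) left out of the choice was within 2-fold of their mean in the other libraries, for the 150 chosen without it and for the remaining eligible transcripts. The chosen lists lie above the remaining transcripts at every position, from 62.7% against 58.2% in neurons to 96.7% in neurons replicate 1.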

How the data were processed

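RNA of 9 sorted cell samples was sequenced after SMART-Seq v4 amplification. Per the file headers, the deposited tables pair each transcript ID with an estimated count. Lengths that differ from the counts, other values in bases, were also deposited by the authors. The submitters' processing notes name FastQC, Trimmomatic, Bowtie2 2.1.0, RSEM 1.2.15 and danRer10. Which program wrote the estimated counts is not given in the sources used here. CPM was computed on library totals, and CPM per kb on effective lengths. Members were chosen by the stated rule, with the mitochondrial IDs ENSDART00000093596 to ENSDART00000093625 left out. The members, lists and tests were chosen with earlier results of these data known.

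Rounded estimated counts were tested with edgeR 4.0.16 in R 4.3.3 (filterByExpr, which kept 23408 transcripts, TMM, quasi-likelihood test with group as its only term, Benjamini-Hochberg adjustment, two-sided, threshold 0.05). DESeq2 1.42.0 and limma 3.58.1 voom were alternatives. The rule was run on simulated levels whose planted steady transcripts stood far apart from the rest, unlike the end of the real list. The edgeR test was run on simulated counts with planted fold changes. Neither run is used as support here. Named members are the 5 steadiest, the 5 most abundant, those at the end of the list, per pair of groups and direction the 2 that leaned most without overlap, and the 3 partners of the steadiest. ENSDART00000136991.1 and ENSDART00000164039.1 were named after their values were seen. Reads were amplified without molecular identifiers, so counting errors cover counting only. Gene lists and cell type markers planned for named genes were not used here.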

Additional observations from a re-analysis of the deposited data

How the results depend on the processing

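The list depended more on its floor and its unit than on the scaling. It shared 124 to 138 of its 150 members with lists chosen under TMM, DESeq2 or upper-quartile scaling, 58, 97 and 68 with floors of 10, 50 and 200 CPM, 99 with TPM in place of CPM, 92 by spread within groups alone, 36 with only whole-number counts, and 80, 89 and 80 without Schwann cells, the oligodendrocyte lineage or neurons. For whole-number counts the limit is that 36 members hold them. By the rule, a floor of 200 CPM keeps only the members that reach it in every library. Lower floors admit further transcripts, and those of lower spread displace members. For the other settings the cause was not tested. Without single libraries it shared 117 to 140. The median SD of the original 150 members, read without a single library, was 0.444 to 0.485.

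The median difference of the members moved with the scaling. For Schwann cells against the oligodendrocyte lineage it was 0.0921, 0.316 and 0.508 with TMM, DESeq2 and upper-quartile factors, and 0.108 to 0.224 without single libraries. Against neurons it was 0.0754 with TMM, 0.616 with upper-quartile factors, 0.135 with TPM, and 0.260 to 0.371 without single libraries. For the oligodendrocyte lineage against neurons it reversed to -0.0138 with TMM and -0.0458 with TPM, was 0.0154 with DESeq2 size factors, and 0.0853 to 0.184 without single libraries. The members' share in neurons was 7.17% by TPM, against 6.22% of counts, which put neurons above the oligodendrocyte lineage (6.78% by TPM, 6.66% of counts). The cause was not tested.

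Limma voom called 3, 2 and 5 members, and the other alternatives called 0. That 0 shows no stability, because many of these fits called few transcripts of any kind. The fit with a replicate block called 0 of all 23408 transcripts in each comparison, so its 0 members are fixed by the fit. Over all transcripts edgeR called 186, 83 and 20; the lowest counts without a single library were 1 (without oligodendrocyte lineage replicate 2), 1 (without neurons replicate 2 or 3) and 0 (without neurons replicate 1 or 3), and the highest were 379 and 118 (without Schwann cells replicate 3) and 58 (without Schwann cells replicate 2). Deviations of same-numbered libraries correlated between -0.036 and 0.028, and those of differently numbered libraries between -0.035 and 0.040. No label states whether the numbers pair the samples. These values cannot settle it, since the spread between libraries of a group can hide a shared origin. The floor fixes a high count for every member. With counts thinned to the total of the smallest library, the list shared 149 of its 150 members. What depth contributes to the other results was not tested.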
